A study of Mus musculus with 6 samples.

Results

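The genes described here are 37 mouse chaperones, co-chaperones and heat shock factors, chosen by name from a list of cytosolic chaperones and the chaperonin and read in Ba/F3 cells. A probe set assigned to 1 gene was found for 34 of the 37, among 18193 named genes in all. Hsf1 and Hsp90ab1 have no probe set in the annotation used here and Ptges3 is named only together with other genes, so these 3 were not analysed here. Of the 34, 3 (Hspa9, Hspd1 and Hspe1) are known as mitochondrial rather than cytosolic chaperones, and they are given apart from the others. Ba/F3 is an interleukin-3-dependent mouse blood cell line, labelled as murine leukemia cells of BALB/c background and kept in medium with supernatant of WEHI-3 cells, a source of interleukin-3. All 6 arrays came from cells that carry the fusion gene PAX5-KIDINS220 (P-K220) under a retroviral doxycycline-inducible system. The 3 Dox(-) arrays were of cells without doxycycline and the 3 Dox(+) arrays of cells given 500 ng/mL of it for 24 h. No array of cells without the fusion gene or of parental cells given doxycycline is among the samples used here, so the drug and the fusion cannot be told apart. The titles carry array codes of 2 series, here the EA15 and the EA20 arrays: EA15 holds 1 array of each group and EA20 holds 2 of each. What the codes stand for is not stated in the labels. Nor do the labels say that the arrays of a group came from separate cultures, so a p-value here reflects how much these arrays vary, and that variation may be technical.

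Chaperones bind proteins that are not yet folded, or that have lost their fold, and keep them from aggregating. HSP70 proteins hold short unfolded stretches in a cycle driven by ATP, which J-domain proteins start and nucleotide exchange factors end, and can pass clients to HSP90, whose co-chaperones choose the client and set the pace of its ATP cycle. The chaperonin CCT, a double ring of different subunits, folds actin, tubulin and other proteins inside its cavity, with prefoldin delivering some of them, and heat shock factors switch on many of these genes when unfolded proteins build up. In growing blood cells most of these proteins are abundant without any stress, while a few, such as the inducible HSP70 genes, stay low until heat or other damage.

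As a check of the labels, 1 of the 2 Pax5 probe sets (1421765_at) read 15.64, 3.76 and 20.32 on the Dox(-) arrays and 118.83, 94.5 and 94.17 on the Dox(+) arrays. The other (1454401_at) read between 23.92 and 91.97 without and between 48.14 and 133.1 with it, so its groups overlapped. Of 12 blood cell and interleukin-3 receptor markers, 11 had a mean signal above 52.4, the 40th percentile of all genes, with Kit below it. Above that limit were 3 of 8 B-lineage, 2 of 6 T cell, 4 of 7 macrophage and 0 of 6 fibroblast markers. All arrays had been scaled to the same trimmed mean of 500.0. The median probe set read 56.5 and 57.3 on the EA15 arrays and between 61.9 and 65.9 on the EA20 arrays, so it was higher on every EA20 array. The number of arrays limits the precision of every value below.

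No chaperone gene passed the threshold for doxycycline, whereas most of them stood at another level on the EA20 arrays than on the EA15 arrays. With the array series as a block, limma called 36 of 18193 genes with against without doxycycline, 0.198% of all tested, and 0 of the 34 chaperone genes. Between the series, in the same fit, 23 of the 34 were lower in EA20 and 4 were higher at an adjusted p under 0.05, while 7 were not called. Over all genes 16.3% were lower and 17.3% higher. The median log2 difference between EA20 and EA15 was -0.518 over the 34 and 0.038 over all genes. All 4 EA20 arrays lay below both EA15 arrays for 23 of the 34 (21.5% of all genes) and above both for 5 (24.6% of all genes). In a culture read in bulk, fewer cells of a kind and less RNA per cell cannot be told apart. The 27 genes called had the same sign in the arrays without and in those with doxycycline.

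**Figure D1:**
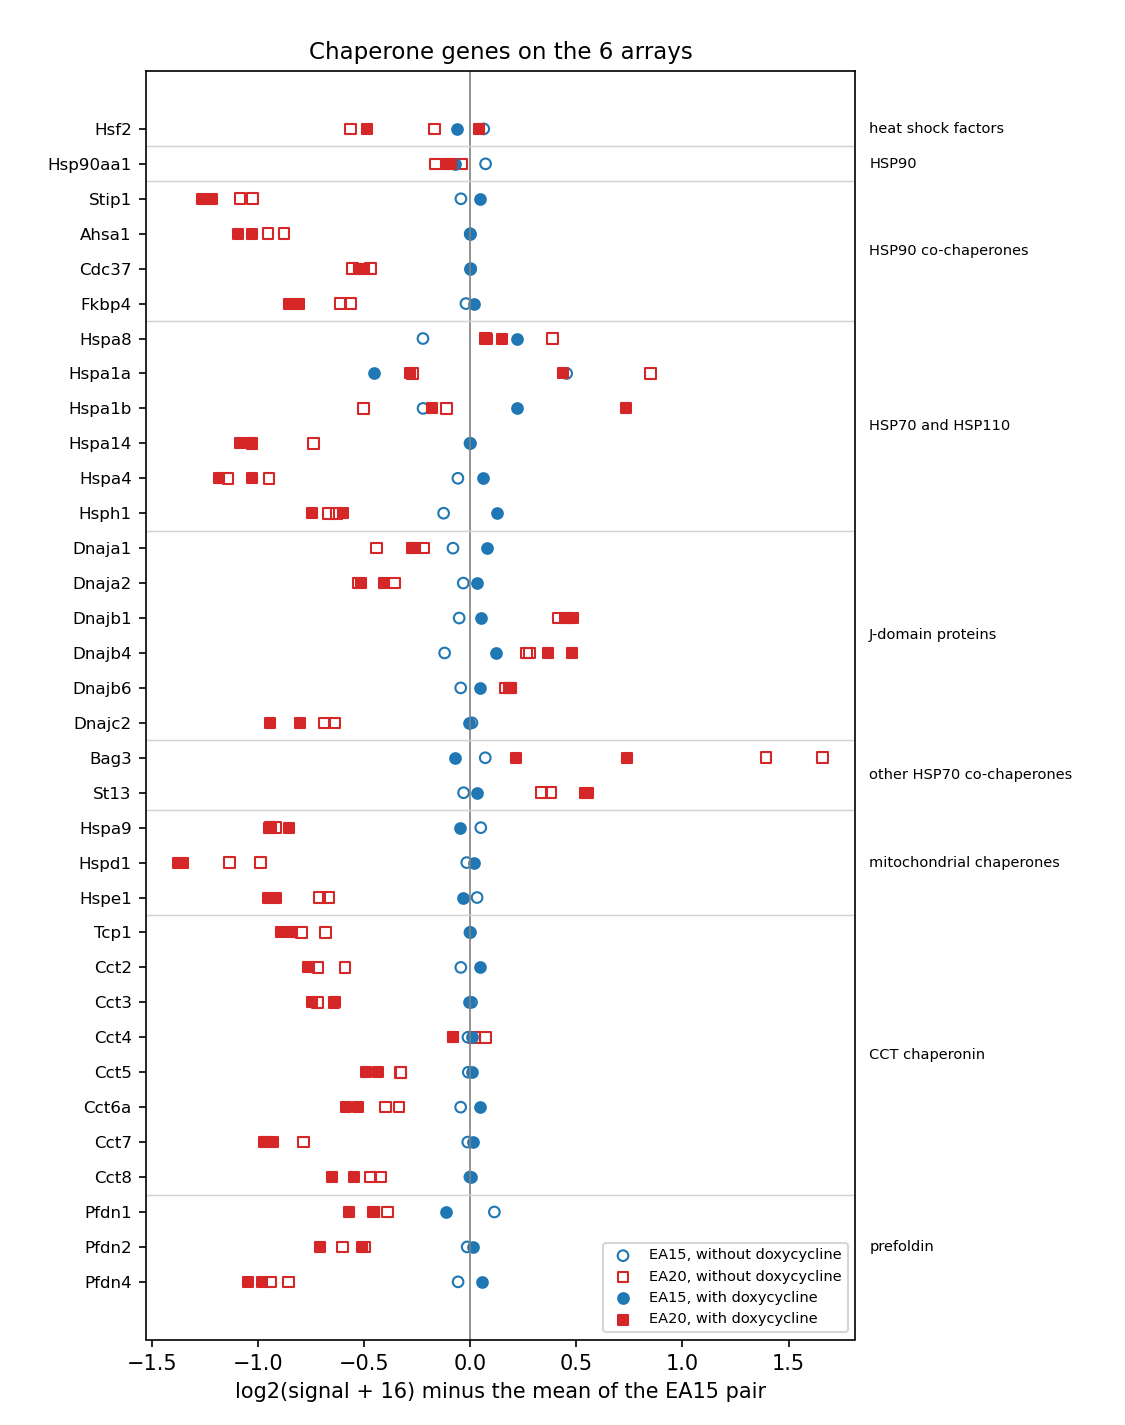
Each row is 1 chaperone gene and each point 1 array, as log2(signal + 16) minus the mean of the 2 EA15 arrays, in the order of the roles named at the right; circles are EA15, squares EA20, and filled symbols had doxycycline. For 23 of the 34 genes all 4 squares lie left of both circles, and open and filled squares lie close together beside that distance for most of these.

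Values are given below as the deposited signals, in one order: EA15 without and with doxycycline, then EA20 without (2 arrays) and with (2 arrays). A log2 difference between the series is EA20 minus EA15, adjusted for doxycycline, on the log2(signal + 16) scale, from 2 and 4 arrays. Signals of different genes come from different probes and were not set against each other.

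All 4 co-chaperones of HSP90 that were measured were lower in EA20. Stip1, which ties HSP70 to HSP90, read 5312 and 5646 in EA15 and 2681, 2575, 2346 and 2274 in EA20. The EA20 arrays held 0.451 of the EA15 level, a log2 difference of -1.15 (SE 0.074, adjusted p = 3.8e-06). Ahsa1, which speeds up the ATP cycle of HSP90, read 6554 and 6554 in EA15 and 3559.8, 3380.2, 3058 and 3204 in EA20, a difference of -0.99 (SE 0.064, adjusted p = 4.1e-06). For both genes every EA20 array lay far below the EA15 pair, and the 2 arrays of that pair were close to each other. Fkbp4, a prolyl isomerase of steroid receptor complexes, read 3873 and 3983 in EA15 and 2656, 2562, 2241 and 2165 in EA20, a difference of -0.71 (SE 0.075, adjusted p = 6.7e-05). Cdc37, which brings protein kinases to HSP90, read 8878 and 8849 in EA15 and 6402, 6028, 6156 and 6258 in EA20, a difference of -0.51 (SE 0.061, adjusted p = 0.00014). The median over the 4 was -0.849. The stress-inducible HSP90 itself, Hsp90aa1, read 23505 and 21259 in EA15 and 21720.4, 19962, 21017 and 20719 in EA20. Its series overlapped and differed by -0.10 (SE 0.081, adjusted p = 0.42) on this probe set.

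In the HSP70 and HSP110 family, 3 of 6 genes were lower in EA20 and 3 did not pass. Hspa4, an HSP110-type exchange factor for HSP70, read 8446 and 9155 in EA15 and 4552, 3977, 3866 and 4301 in EA20, a difference of -1.08 (SE 0.081, adjusted p = 9.4e-06). Hspa14, an HSP70 found at the ribosome, read 3812 and 3817 in EA15 and 2281, 1863, 1789 and 1858 in EA20, a difference of -0.97 (SE 0.088, adjusted p = 2.7e-05). Hsph1, the heat-inducible HSP110, read 3059.5 and 3643 in EA15 and 2096, 2149.8, 1986 and 2198 in EA20, a difference of -0.66 (SE 0.079, adjusted p = 0.00015). Both EA15 arrays lay above all EA20 arrays for each of these. The constitutive HSP70, Hspa8, read 24006 and 32689 in EA15 and 36641, 29439, 29636 and 31110.1 in EA20; here the EA15 array without doxycycline was the lowest of all and the other 5 overlapped, with a difference of 0.17 (SE 0.14, adjusted p = 0.43). The inducible HSP70 genes were near the bottom of the scale. Hspa1a read 20.7 and 3.55 in EA15 and 6.19, 32.3, 6.04 and 20.3 in EA20 and Hspa1b 29.2 and 45.5 in EA15 and 32.8, 21.2, 30.6 and 71.8 in EA20. Neither reached 52.4 on average, their groups and series overlapped, and their differences were 0.19 (SE 0.42) and -0.015 (SE 0.39).

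J-domain proteins, which start the ATP cycle of HSP70, split into 3 lower and 3 higher. Dnajc2, the J-domain partner of HSP70 at the ribosome, read 5304 and 5247 in EA15 and 3384, 3275, 3022 and 2736 in EA20, a difference of -0.77 (SE 0.071, adjusted p = 3.1e-05). Dnaja2 read 10305 and 10785 in EA15 and 8228, 7314, 7378 and 7946 in EA20, a difference of -0.45 (SE 0.074, adjusted p = 0.001). Dnaja1, like Dnaja2 a type I J-domain protein of the cytosol, read 6921 and 7749 in EA15 and 6293, 5383, 6054 and 6121 in EA20, a difference of -0.30 (SE 0.075, adjusted p = 0.012). The remaining 3 were higher in EA20. Dnajb1, the classic heat-inducible partner of HSP70, read 1826 and 1964 in EA15 and 2591, 2534, 2607 and 2652 in EA20, a difference of 0.45 (SE 0.059, adjusted p = 0.00024). Dnajb4, its close relative, read 1172 and 1388 in EA15 and 1551, 1535, 1647 and 1783 in EA20, a difference of 0.35 (SE 0.067, adjusted p = 0.0029). Dnajb6, which keeps aggregation-prone proteins soluble, read 3634 and 3868 in EA15 and 4280.1, 4206, 4283 and 4259 in EA20, a difference of 0.18 (SE 0.057, adjusted p = 0.036). In each of these the 4 EA20 arrays lay above the EA15 pair. Of the other co-chaperones of HSP70, St13, which holds HSP70 in its ADP state, was higher in EA20, at 5711 and 5964 in EA15 and 7601, 7365, 8507 and 8594 in EA20, a difference of 0.45 (SE 0.063, adjusted p = 0.00036). Bag3, a heat-inducible exchange factor, was dim, at 8.08 and 5.83 in EA15 and 44.2, 56.5, 22.3 and 10.6 in EA20. Its 4 EA20 arrays were above both EA15 arrays, but the difference of 1.003 (SE 0.37, adjusted p = 0.068) did not pass, and the pair with doxycycline lay below the pair without it.

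The 3 mitochondrial chaperones were all lower in EA20, with a median of -0.914. Hspd1, the mitochondrial chaperonin HSP60, had the lowest log2 difference of the 34 genes: it read 20068 and 20528 in EA15 and 10224, 9239.7, 7926 and 7819 in EA20. EA20 stood at 0.431 of EA15 (95% interval 0.375 to 0.497), a log2 difference of -1.21 (SE 0.09, adjusted p = 8.3e-06). Hspe1, the HSP10 lid of the same chaperonin, read 12169.6 and 11635 in EA15 and 7478, 7269.7, 6297 and 6146 in EA20, a difference of -0.81 (SE 0.067, adjusted p = 1.6e-05). Hspa9, the mitochondrial HSP70, read 9395 and 8767 in EA15 and 4715, 4807, 5013 and 4703 in EA20, a difference of -0.91 (SE 0.064, adjusted p = 5.9e-06). For each of the 3 every EA20 array lay below every EA15 array.

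Of the 8 subunits of CCT, 7 were lower in EA20 and the median over the 8 was -0.604. Cct7 read 17047 and 17323 in EA15 and 9973, 8764, 8789 and 9014 in EA20, a difference of -0.91 (SE 0.075, adjusted p = 1.6e-05). Tcp1, the alpha subunit, read 16739.7 and 16770.1 in EA15 and 10438, 9661, 9024 and 9355 in EA20, a difference of -0.80 (SE 0.071, adjusted p = 2.3e-05). Each subunit has a fixed place in the ring. Cct2 read 12848 and 13663 in EA15 and 8052, 8799.5, 7812 and 7785 in EA20, a difference of -0.71 (SE 0.074, adjusted p = 6.3e-05). Cct3 read 13847 and 13728 in EA15 and 8831, 8369, 8866 and 8223 in EA20, a difference of -0.69 (SE 0.067, adjusted p = 4.1e-05). The next were lower by smaller amounts. Cct8 read 8528 and 8547 in EA15 and 6155, 6369, 5832 and 5424 in EA20, a difference of -0.52 (SE 0.068). Cct6a read 12929.9 and 13766 in EA15 and 10117, 10573, 9241 and 8896 in EA20, a difference of -0.46 (SE 0.08). Cct5 read 14963 and 15152 in EA15 and 12012, 11985, 10717 and 11145 in EA20, a difference of -0.39 (SE 0.07). Their adjusted p-values from limma were 0.00024, 0.0014 and 0.0017. Cct4 stood apart: it read 14432 and 14647 in EA15 and 15282, 14729.8, 13726 and 13749.6 in EA20, a difference of -0.018 (SE 0.071, adjusted p = 0.89), with overlapping series.

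The 3 prefoldin subunits, which hand actin and tubulin chains to CCT, were lower too, with a median of -0.579. Pfdn4 read 2679.6 and 2902 in EA15 and 1532, 1447, 1340.2 and 1404 in EA20, a difference of -0.96 (SE 0.074, adjusted p = 1.1e-05). Pfdn2 read 4269 and 4354 in EA15 and 3052, 2837, 2632 and 3025 in EA20, a difference of -0.58 (SE 0.074, adjusted p = 0.00022). Pfdn1 read 2265 and 1932 in EA15 and 1595, 1522, 1522 and 1405 in EA20, a difference of -0.47 (SE 0.07, adjusted p = 0.00058). No EA20 array reached an EA15 array for any of the 3. Hsf2, the measured heat shock factor, was close to the dim limit at 72.7 and 65.2 in EA15 and 59.5, 41.4, 71.4 and 44.5 in EA20, with overlapping series and a difference of -0.29 (SE 0.34, adjusted p = 0.6). Of the 12 members marked as heat-inducible 6 were lower in EA20, 2 (Dnajb1 and Dnajb4) were higher and 4 did not pass, with a median of -0.20. Over all genes 16.3% were lower and 17.3% higher.

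**Figure D2:**
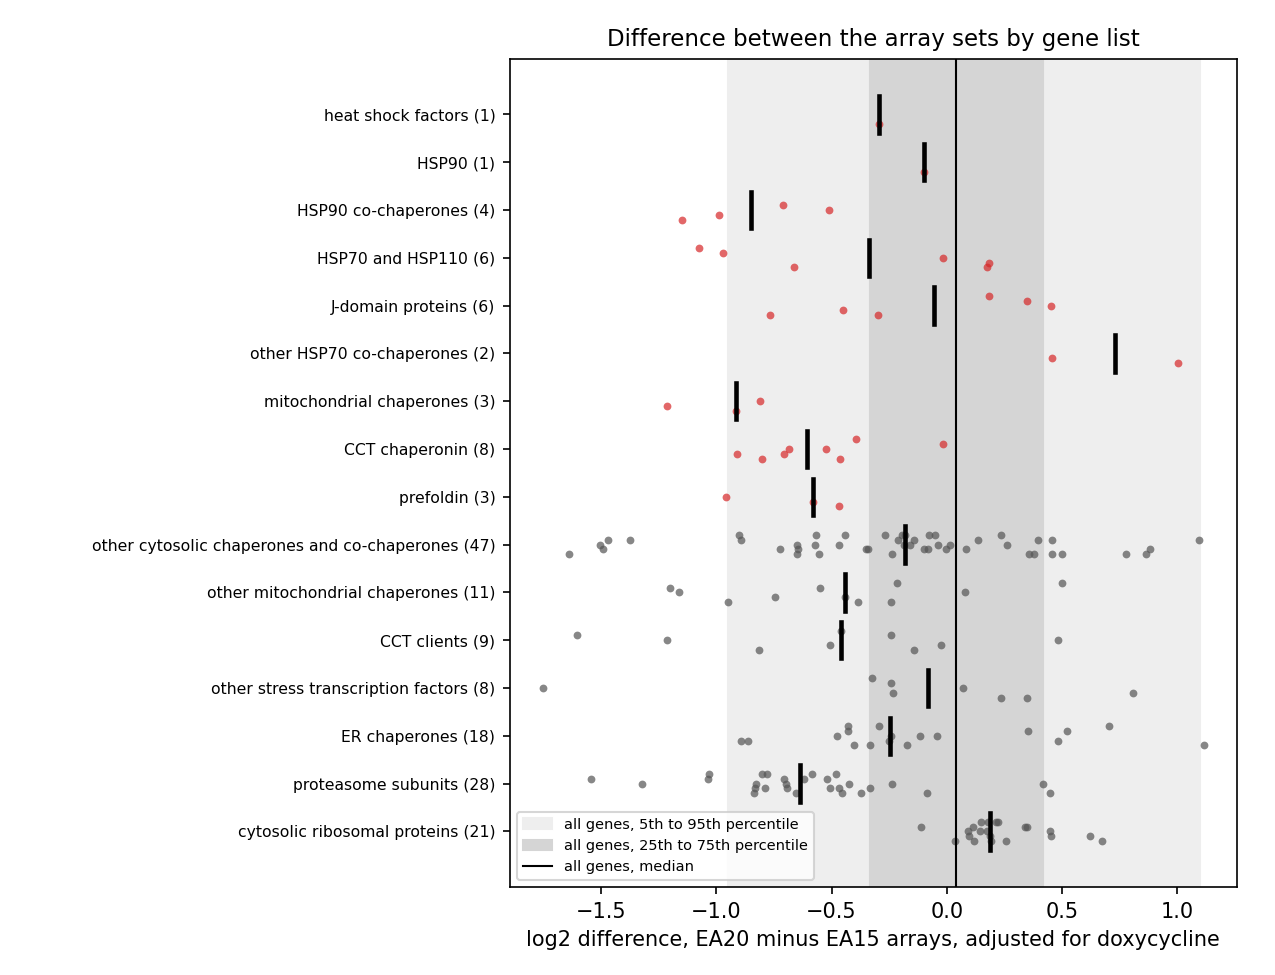
Each point is 1 gene and its log2 difference between the EA20 and EA15 arrays, adjusted for doxycycline; rows are gene lists with their number of genes, red for the roles of the 34 chaperone genes and grey for other lists, the black bar is the median, and the shaded bands give the spread of all genes around their median of 0.038. The medians of the HSP90 co-chaperones (-0.849), the CCT subunits (-0.604) and the mitochondrial chaperones (-0.914) lie left of the band between the 25th and 75th percentiles. So do those of prefoldin (-0.579), of HSP70 and HSP110 (-0.338, just outside) and, among the grey lists, of the proteasome subunits (-0.638), other mitochondrial chaperones (-0.44) and CCT clients (-0.457).

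Other genes of the same pathway were lower in EA20 more often than higher, where over all genes 16.3% were lower and 17.3% higher. Of 47 other cytosolic chaperones and co-chaperones 19 were lower and 10 higher, with a median of -0.181. Those with the smallest p were Aarsd1 at -1.64, Dnajc21 at -1.50, Ppp5c at -1.49, Ruvbl2 at -1.47 and Nasp at -1.37, and, on the higher side, the prefoldin subunit Pfdn5 at 0.86. Ppp5c is a phosphatase that binds HSP90, Ruvbl2 an ATPase that assembles large complexes with HSP90, and Nasp a histone chaperone. The largest adjusted p among these 6 was 1.2e-05 (limma). Of 11 other mitochondrial chaperones and proteases 8 were lower and 1, Hscb, was higher, with a median of -0.44. Lonp1 and Clpp, which degrade proteins in the matrix, differed by -1.16 and -0.74, Htra2 by -1.20, Dnaja3 by -0.55 and Trap1, the mitochondrial HSP90, by -0.95.

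Lists outside the pathway also differed between the series, where 16.3% of all genes were lower in EA20 and 17.3% higher. Of 28 proteasome subunits 25 were lower in EA20 and 2 higher, with a median of -0.638, and of 18 chaperones of the endoplasmic reticulum 10 were lower and 5 higher, with a median of -0.247. Of 21 cytosolic ribosomal proteins 6 were higher and 0 lower, with a median of 0.186. In limma 7 of the 21 had an unadjusted p under 0.05, as did 7240 of all 18193 genes. The 12 blood cell markers all had a higher mean in EA20 and 10 of them passed, with a median of 1.186. Their summed signal lay between 47946 and 50625 on the EA15 arrays and between 107726 and 118347 on the EA20 arrays. The summed macrophage markers lay between 1081 and 1209.6 in EA15 and between 1540.5 and 1731 in EA20. The summed B-lineage markers lay between 654 and 756 in EA15 and between 799 and 939.8 in EA20. Cd79b, with a mean signal of 601.0, made up most of that sum. By gene, 6 of the 8 B-lineage markers had a lower mean in EA20, with a median log2 difference of -0.277 and 1 called, higher. The summed fibroblast markers, none above the dim limit, lay between 142 and 154 in EA15 and from 177 upward in EA20, with 0 of the 6 called. The summed T cell markers lay between 186 and 205 in EA15 and between 423 and 487 in EA20, with 1 of the 6, Cd3g, called (6.68 to 381.7 over the arrays) and a median log2 difference of 0.054 over the 6. The 3'/5' signal ratio of the array's Actb controls was 1.17 to 1.18 in EA15 and 1.18 to 1.24 in EA20, and that of Gapdh 0.684 to 0.688 and 0.637 to 0.680. The part of these differences in the chaperone result was not tested.

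Centring the log2 values on each array's median moved the median of all genes between the series from 0.038 to -0.137, and with it the split of all calls, from 3148 higher and 2959 lower (51.5% higher) to 2281 higher and 3863 lower (37.1% higher). Under that centring 23 chaperone genes were again lower, and 2 of the 4 higher ones, Dnajb4 and Dnajb6, no longer passed. Dnajb6 also lost its call when any 1 of the 6 arrays was left out. Dnaja1 lost its call without the EA15 Dox(+) array. Without Dox(+) replicate 3, an EA20 array, Bag3 passed.

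Several genes are read by more than 1 probe set, and these did not always move together. The 34 genes have 92 probe sets, and 25 of the genes have several. When every probe set was fitted by itself, an alternative added after the values had been seen, 43 of the 92 were lower in EA20, 9 higher and 40 not called, against 13.5% lower and 15.6% higher over all 34945. Of the 23 genes called lower, 7 have 1 probe set only, 10 had another that was also lower and none higher, 4 had others that did not pass, and 2 had another that was higher. Those 2 were Hspa4 and Dnaja1. For Hspa4 the brightest probe set differed by -1.075 while 1435194_at differed by 1.264 and 1416147_at by 0.842. For Dnaja1 the brightest differed by -0.298 and the others by 0.278 and 0.927. Of the 4 genes called higher, 0 had a second probe set called higher, and St13 had one called lower (-0.205 against 0.454). Hspa8, whose brightest probe set was not called, had 1420622_a_at at 0.951 and 1431182_at at -1.189, called in opposite directions. Genes with calls both ways were thus 4 of 25 with several probe sets, 16%, against 230 of 9010 genes, 2.55%. Counting only genes with some probe set called, they were 4 of 23, against 230 of 4604 genes, 5%. For Hsp90aa1 2 of the other probe sets were lower, at -0.499 and -0.609. Of the probe sets of Cct4 only 1456082_x_at was called, at -0.505. Which transcripts or regions each probe set reads was not analysed here, so the level of Hspa4, Dnaja1, Hspa8 and St13 between the series is uncertain. Calls of other genes also rested on the probe set chosen. When the probe sets of a gene were averaged, Fkbp4, Hspa14, Dnajc2, Cct8, Dnajb1, Dnajb4 and Dnajb6 no longer passed. Without the probe sets marked _s_at, _x_at or _a_at, Fkbp4, Dnajc2, Cct3 and Cct8 no longer passed. The probe sets that then stood for these genes were far dimmer. Their mean signals were 86.2, 125.7, 33 and 15.2, against 2913.4, 3828, 10310.6 and 6809.1 for the brightest. Of the 6 other probe sets of Cct3, 4 were called lower and 0 higher. Hsp90aa1 was called lower both on averaging and without the suffixed probe sets. Without the suffixed probe sets Hspa8 was called lower too, at -1.189, and St13 turned from higher to lower, at -0.205.

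**Figure D3:**
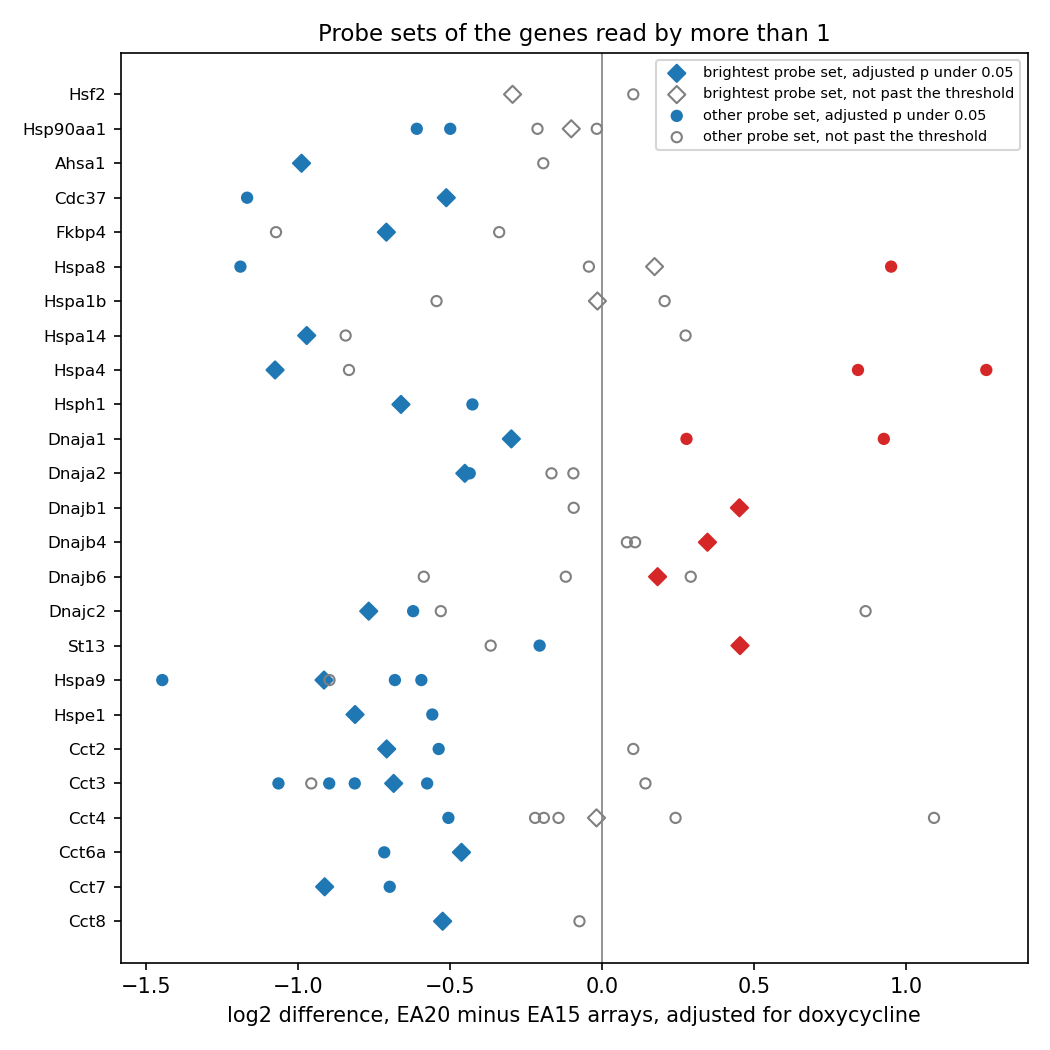
Rows are the 25 chaperone genes with several probe sets; each point is 1 probe set and its log2 difference between EA20 and EA15, with diamonds for the brightest probe set, filled blue or red where it was lower or higher at an adjusted p under 0.05. Filled points of both colours stand on the rows of Hspa8, Hspa4, Dnaja1 and St13, while all filled points of Hspa9, Hspe1, Cct3, Cct6a and Cct7 are blue.

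The promoters of these genes were searched for the heat shock element, the DNA motif of heat shock factors, built from inverted repeats of GAA. The list was chosen by name and holds 12 members marked as heat-inducible. A larger share of matches than over all genes thus describes the list and not the difference between the series. RefSeq promoter windows (GRCm38.p6), each from 250 bases before to 50 bases after a start site, were at hand for 28 of the 37 genes, as 38 windows. Matched on both strands were the 2-unit forms GAANNTTC and TTCNNGAA and the 3-unit forms GAANNTTCNNGAA and TTCNNGAANNTTC, where N is any base and every 3-unit match holds overlapping 2-unit ones. A 2-unit match was present for 14 of the 28 genes (50%) and for 17.0% of 27025 genes in all. A 3-unit match was present for 4 of the 28 (14.3%), namely Hspd1, Hspe1, Hsph1 and Dnajb6, and for 0.662% of all genes. By windows of the same length the shares were 42.1% against 15.1% for 2 units and 15.8% against 0.603% for 3. Some matches are counted more than once in these shares. Hspd1 and Hspe1 hold the same stretch, which counts for both genes. Overlapping windows of Dnajb6, and those of Hsph1, hold the same 3-unit match. Of 20 genes called lower in EA20 that have a window, 9 held a 2-unit match, as did 2 of 3 called higher and 3 of 4 not called. A match in these letters describes the sequence and not binding.

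Hspd1 and Hspe1 make the 2 parts of the mitochondrial chaperonin and include the lowest difference of the 34 genes. They are neighbours on opposite strands of chromosome 1, and 285 bases of their windows are the same stretch read from opposite strands. They are shown with Dnajb6, the 3-unit match among the genes that were higher, with Hspa1a, the textbook target of heat shock factors, which stayed dim, and with Fkbp4 and Cct2 as 2-unit matches among the lower genes. Capitals mark the matches, and each is written 5' to 3' on the gene's own strand.
Hspe1 (chr1:55088053-55088082, plus strand, bases -95 to -66 from the start): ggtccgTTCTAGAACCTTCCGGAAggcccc
Hspd1 (chr1:55088053-55088082, minus strand, bases -150 to -121): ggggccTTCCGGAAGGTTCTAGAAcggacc
Dnajb6 (chr5:29735846-29735870, plus strand, bases -52 to -28): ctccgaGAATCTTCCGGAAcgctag
Hspa1a (chr17:34972247-34972266, minus strand, bases -110 to -91): ctgctgGAAGATTCctggcc
Fkbp4 (chr6:128438794-128438813, minus strand, bases -157 to -138): tctctaGAAAGTTCtccgct
Cct2 (chr10:117063404-117063423, minus strand, bases -48 to -29): agtgaaGAAGTTTCtagcag

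Hspa1b holds the same 20 bases as Hspa1a at the same distance from its start, at chr17:34959329-34959348. The windows of Stip1, Hspa4, Ahsa1, Hspa14, Pfdn4 and Cct7, 6 genes with differences below -0.9, and that of Dnajb1, which was higher, held no match of either form.

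With against without doxycycline, the question the study asks, none of the 34 passed. With the block for the array series, 10 of the 34 differences were positive and 24 negative, with a median of -0.042 against 0.004 over all genes. In limma an unadjusted p under 0.05 was reached by 3 of the 34 and by 2015 of all 18193 genes. Hspe1 differed by -0.19 (SE 0.063, adjusted p = 0.31), Dnajb4 by 0.18 (SE 0.064, adjusted p = 0.33) and St13 by 0.15 (SE 0.059, adjusted p = 0.39). The next were Hspd1 at -0.19 (SE 0.085, adjusted p = 0.45), Dnajc2 at -0.15 (SE 0.067, adjusted p = 0.48) and the dim Bag3 at -0.75 (SE 0.35, adjusted p = 0.48). In fold terms Hspe1 stood at 0.880 with doxycycline (95% interval 0.796 to 0.972) and Hspd1 at 0.876 (0.767 to 1.0). No chaperone gene had all 3 arrays with doxycycline on one side of all 3 without it. The share of all genes with such a separation was not counted, so this says nothing particular about the chaperone genes. All 8 CCT subunits had negative differences, from -0.10 for Cct8 to -0.011 for Cct3. All 3 prefoldins did too, from -0.14 for Pfdn1 to -0.031 for Pfdn2, and none of these 11 passed. Within EA20 alone all 11 were negative. In the EA15 pair, 7 of the 8 CCT subunits and 2 of the 3 prefoldins were positive. Of 6 J-domain proteins 5 were positive, and of the 18 chaperones of the endoplasmic reticulum 14, with a median of 0.077 and again none called. Of the 21 ribosomal proteins 19 were negative, with a median of -0.022.

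Within the EA20 arrays alone, 2 against 2, limma called 75 genes (0.412%) and 0 of the 34. Differences were negative for 25, with a median of -0.10 against -0.002 over all genes. An unadjusted p under 0.05 was found for 8 of the 34 and for 2367 of all 18193 genes. The smallest p-values were those of Hspd1 at -0.30 (SE 0.077, adjusted p = 0.17), Fkbp4 at -0.24 (SE 0.063, adjusted p = 0.18), Hspe1 at -0.25 (SE 0.065, adjusted p = 0.18), Stip1 at -0.19 (SE 0.063, adjusted p = 0.29) and Dnajc2 at -0.21 (SE 0.072, adjusted p = 0.28). Both arrays with doxycycline lay below both without it for 15 of the 34 (20.9% of all genes) and above for 3, Dnajb1, Dnajb4 and St13 (21.6% of all genes). In the EA20 series the codes of the 2 arrays with doxycycline come before those without it, so code order and treatment cannot be told apart there.

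The EA15 pair, with 1 array a group and no test, had 24 of the 34 ratios positive and 10 negative, with a median log2 ratio of 0.026. Over all genes 52.5% of the EA15 ratios were positive, with a median of 0.015. Among genes of opposite sign in the 2 series, Hspa8 had the widest gap, 0.45 in EA15 and -0.11 in EA20. Hspd1 was at 0.033 and -0.30, Stip1 at 0.088 and -0.19, and Fkbp4 at 0.04 and -0.24. The difference of the doxycycline effect between the series was tested in limma with an interaction, in which the lone EA15 arrays are taken to vary like the EA20 arrays. It called 0 genes (0%), with 1222 genes at an unadjusted p under 0.05, among them 4 of the 34. These were Fkbp4 at -0.28 (SE 0.11, adjusted p = 0.72), Hspa8 at -0.56 (SE 0.22, adjusted p = 0.73), Stip1 at -0.27 (SE 0.11, adjusted p = 0.73) and Hspd1 at -0.34 (SE 0.14, adjusted p = 0.73).

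**Figure D4:**
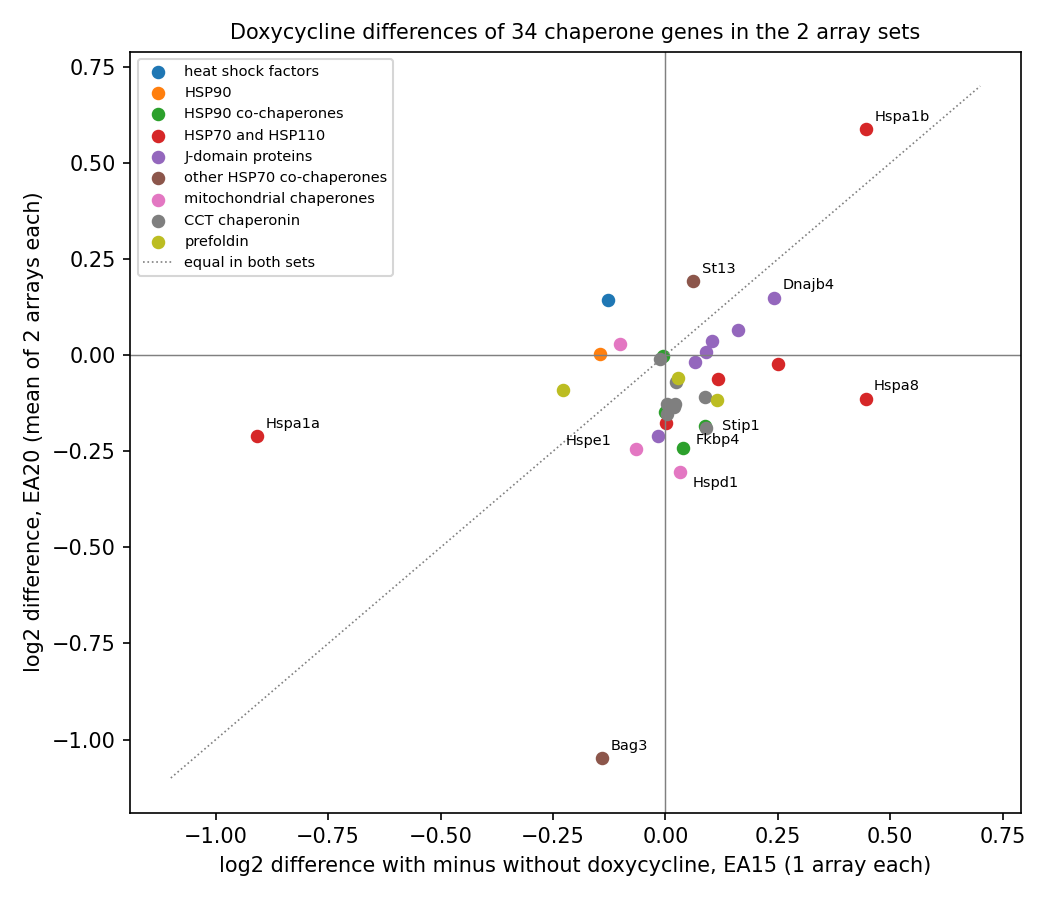
Each point is 1 of the 34 chaperone genes, coloured by role, with its log2 difference with minus without doxycycline in EA15 (1 array each) on the x axis and in EA20 (mean of 2 arrays each) on the y axis; the dotted line marks equal values. Most points lie right of 0 in EA15 and below 0 in EA20, and the genes farthest from the origin are the dim Hspa1a, Hspa1b and Bag3.

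None of the related lists gave a call for doxycycline either, in any of the 3 comparisons. With the block, limma gave an unadjusted p under 0.05 for 2015 of all 18193 genes. Among the other cytosolic chaperones it did so for 7 of 47. They were led by Fkbp5, an HSP90-binding isomerase, at -0.25 (SE 0.069, adjusted p = 0.23), Nudcd2, an HSP90 co-chaperone, at -0.21 (SE 0.061, adjusted p = 0.24), Dnajc9, a J-domain protein that binds histones, at -0.24 (SE 0.073, adjusted p = 0.27), and Hspa2, an HSP70, at 0.37 (SE 0.12, adjusted p = 0.3). Within EA20 Fkbp5 was at -0.34 (SE 0.064, adjusted p = 0.095) and Dnajc9 at -0.34 (SE 0.066, adjusted p = 0.1). Of the other mitochondrial chaperones Trap1 had the smallest p, at -0.17 (SE 0.057, adjusted p = 0.31).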

How the data were processed

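Total RNA of 6 Ba/F3 samples was read on Affymetrix mouse arrays with biotin-labelled cRNA, per the labels. The deposited values are linear signal intensities of 45101 probe sets that the authors produced in Expression Console (Affymetrix), as the submitters' processing notes list it, with neither version nor algorithm named there. Each column has the same mean of 500.0 after 2% is trimmed from each end, so the arrays were scaled and no further normalization was applied. Of the probe sets 34945 carry 1 gene symbol in the platform annotation, and 932 with several were left out. The probe set with the highest mean stood for each of 18193 genes. The members and lists were chosen with earlier results of these data known. Differences of log2(signal + 16) were tested two-sided with limma 3.58.1 (R 4.3.3, eBayes with trend), with array series and doxycycline as terms, and Benjamini-Hochberg adjusted p under 0.05 over all genes. All members were accounted for; related lists were named by smallest p, up to 6 a comparison. On simulated data with 18193 genes, limma recovered 69.4% of 2-fold doxycycline changes with the block, 59.5% of 2-fold differences between the series and 42.9% within EA20. Alternatives changed the scaling, the pseudocount (1 or 64), the filter on dim genes, the choice of probe set, the variance model, the block and the arrays used.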

Additional observations from a re-analysis of the deposited data

How the results depend on the processing

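Of the chaperone genes 0 were called for doxycycline, within EA20 or in the interaction under every alternative run. Between the series 18 to 23 were lower under all alternatives on genes, and leaving out 1 array in turn left 22 to 23 lower and 3 to 4 higher. Of the 4 higher genes, 2 passed with median centring and 2 without the variance trend; when all probe sets of a gene were averaged 0 of the 4 passed, and the 1 gene called higher was Dnaja1, called lower on its brightest probe set, and every probe set by itself, tried after seeing the data, gave 43 lower and 9 higher (0 of 92 for doxycycline). Of the 27 genes called, 17 kept call and direction when probe sets were averaged and 20 without the _s_at, _x_at and _a_at probe sets, where 2 were not measured. On averaging, the sign turned for Hspa4 (0.05), Dnaja1 (0.302), Dnajb6 (-0.058) and St13 (-0.039), and for the uncalled Hspa8 (-0.027) and Cct4 (0.037), and without those suffixes for Hspa8 (-1.189), St13 (-0.205) and Cct3 (0.143). The Cct3 value came from a probe set with a mean signal of 33, under the dim limit of 52.4. The averaging and suffix alternatives differ only in which probe sets are read. Counts over all genes moved more. For doxycycline the 36 became 61 with a pseudocount of 1, 22 with 64, 130 without the dim genes, 13 on averaging probe sets, 0 without the trend and 0 without the block, and 0 to 60 leaving out 1 array. Within EA20 the 75 became 49 with median centring, 155 and 23 with pseudocounts of 1 and 64, 397 without the dim genes, 12 on averaging probe sets, 0 without the trend and 0 to 6 leaving out 1 array; without one EA20 array a lone array is assumed to vary like the pair. The interaction called 30 genes without the dim ones. The cause of these moves was not tested. No paired analysis was possible because the array series, not the replicate number, ties the arrays of the groups together; the block for the series is in the main comparison. Signal over background limits Hspa1a, Hspa1b and Bag3, with mean signals under 52.4, and Hsf2 just above it.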

Other observations

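Of 9 measured genes known to depend on CCT for folding, 6 were lower in EA20 and 1 higher, with a median of -0.457. Over all genes 16.3% were lower and 17.3% higher. The actins Actb and Actg1 differed by -0.142 and -0.024 and did not pass (limma adjusted p = 0.41 and 0.9). A link of these genes to the chaperone result was not tested. Ccne1, the cyclin that drives entry into S phase, differed by -1.60 (SE 0.098, adjusted p = 3e-06), the mitotic kinase Plk1 by -1.21 (SE 0.076, adjusted p = 3.4e-06) and Cdc20, an activator of the anaphase-promoting complex, by -0.82 (SE 0.11, adjusted p = 0.00025). Fzr1 differed by -0.51 and the tubulin Tubb5 by -0.46. Tuba1a, another tubulin, was higher, at 0.48 (SE 0.062, adjusted p = 0.00024), and with doxycycline it differed by 0.28 (SE 0.059, adjusted p = 0.12) in limma with the block.

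Of 8 other stress transcription factors 3 passed between the series, 2 lower and 1 higher in EA20, as did 6107 of all 18193 genes (16.3% lower and 17.3% higher). Atf4, which drives amino acid synthesis genes in the integrated stress response, differed by -1.75 (SE 0.065, adjusted p = 2e-07), farther than any of the 34 chaperone genes. Xbp1, of the unfolded protein response, differed by -0.33 (SE 0.085, adjusted p = 0.014), and Nfe2l2, of the oxidative stress response, was higher at 0.81 (SE 0.066, adjusted p = 1.4e-05). For doxycycline with the block none passed; Ddit3 had the smallest p, at 0.25 (SE 0.098, adjusted p = 0.38).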
